A study of Arabidopsis thaliana with 4 samples.

Results

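The 10 cambium and phellogen regulators examined here are genes named as regulators of the lateral meristems of the Arabidopsis root, and the question was whether MYB67 bound DNA at them. They are a list of named genes out of 27444 nuclear protein-coding genes of the RefSeq annotation, and each was looked up by locus identifier in the authors' deposited table of genes with MYB67 peaks, where a gene without a row has no assigned peak. They comprise the receptor kinase gene PXY (AT5G61480), the homeobox genes WOX4 (AT1G46480), WOX14 (AT1G20700), KNAT1 (AT4G08150) and HB8 (AT4G32880), the AP2-family gene ANT (AT4G37750), and the LOB-domain genes LBD1 (AT1G07900), LBD3 (AT1G16530), LBD4 (AT1G31320) and LBD11 (AT2G28500).

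Binding was measured by DNA affinity purification sequencing (DAP-seq), in which a tagged transcription factor made in a cell-free extract captures fragments of naked genomic DNA that are then sequenced. The labels give 2 libraries in which Halo-tagged MYB67, a MYB transcription factor, was the bait and 2 empty-vector libraries with the Halo tag alone. The DNA was that of the Col-0 accession, made from leaf according to the protocol, while the tissue label of all 4 libraries is root. The deposited files hold 1 peak list for MYB67 and no value of a single library, so library depth is unknown and no value below has a replicate error.

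The vascular cambium forms xylem and phloem, and the phellogen forms the periderm with its suberised outer layer, the phellem, in which the series places MYB67. In the root both meristems arise during secondary growth and involve the pericycle. The peptide TDIF moves from the phloem to the receptor PXY on cambium cells, and PXY keeps these cells dividing through WOX4 and WOX14. LBD4 acts in a loop with WOX14 and the DOF factor TMO6 at the phloem side of the procambium, and KNAT1 and WOX4 also promote periderm growth. DAP-seq shows where a factor can bind DNA in a tube. It measures neither binding in a cell nor expression of the gene.

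The DNA word that MYB67 selected is shown first, because the motif sites counted at the regulators are matches to it. The sequences below are read from the authors' motif matrix, with the most frequent base at each of its 10 positions, and with the first or second most frequent base at position 7 (T in 68.9%, A in 30.4%) and position 9 (C in 53.2%, A in 46.1%). Capitals mark positions where 1 base reached at least 85%.
Position 7 T, position 9 C: tccACCtAcc
Position 7 T, position 9 A: tccACCtAac
Position 7 A, position 9 C: tccACCaAcc
Position 7 A, position 9 A: tccACCaAac
All 4 share the same capital letters, A, C and C at positions 4 to 6 and A at position 8, which stood at 99.7%, 86.3%, 99.7% and 99.5% in the matrix. These are words of the matrix and not the letters at HB8 or LBD4.

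MYB67 peaks were assigned to 2 of the 10 regulators, HB8 and LBD4, and to none of the other 8. HB8 encodes a class III homeodomain-leucine zipper factor of procambium and cambium that responds to auxin, and LBD4 encodes the LOB-domain factor described above. The share of 20% (95% Wilson interval 5.67 to 51.0%, counting error only) stood beside 14.7% of all nuclear protein-coding genes. The regulators were chosen by name, with earlier results of these data known, so the interval is no test of this difference. No peak was assigned to the receptor gene PXY, to its effector genes WOX4 and WOX14, to KNAT1 or to ANT. LBD1, LBD3 and LBD11 had none either. A gene without an assigned peak is not shown to lack binding, since 926 of the 5390 peaks passed the authors' threshold and were given to no gene, and other peaks may have been assigned elsewhere or have been below the threshold.

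The HB8 peak was of ordinary strength, and the LBD4 peak was weaker. The HB8 peak (TAIR10 chromosome 4, 15869569 to 15869778) had a fold enrichment of 4.38, which is the authors' ratio of signal in the peak to the modelled background, and a −log10 q of 9.02. The LBD4 peak (chromosome 1, 11211713 to 11211959) had a fold enrichment of 3.93 and a −log10 q of 5.54. Over the 4030 genes with a peak, each at its strongest peak, the median fold was 4.47 (quartiles 3.78 and 5.66, range 1.61 to 21.6). HB8 stood above 48.6% of these genes by fold, near the middle, and LBD4 above 30.0%, in the lower part. By −log10 q, HB8 stood above 54.5% and LBD4 above 23.2%. The HB8 peak was narrow, at 210 bp against a median of 257 bp over all peaks. With all peaks sorted into 10 classes by width, its fold exceeded that of 87.3% of the 552 peaks in its class. The LBD4 peak, at 247 bp, exceeded 26.2% of the 543 peaks in its own class.

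Each of these peaks held a single motif site as scored by FIMO, the scan that the authors deposited with a site q of up to 0.05. A single site was the case in 1399 of 5390 peaks (26%), with a median fold of 4.15. The site q was 0.0139 at HB8, and 58.6% of single-site peaks had a lower, better one. At LBD4 it was 0.0354, and 86.7% of single-site peaks had a lower one. The LBD4 site was thus among the weakest matches in single-site peaks, and neither site reached a q of 0.01. The summit lay 102 bp from the left edge at HB8 and 79 bp at LBD4, but the deposited sites carry no position within the peak and could not be set against it.

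Because both peaks lie near the middle or low end of the list, stricter readings left fewer regulators. With peaks at or above the median fold of all peaks, 4.38, HB8 alone was left, by a margin of 0.0023, against 7.81% of all genes. A −log10 q of at least 10 left 0 of 10 regulators, against 6.07% of all genes. Requiring a FIMO site at the deposited threshold left HB8 and LBD4, against 14.2% of all genes, and a site q of at most 0.01 left 0, against 7.63%. Counting a gene also where the gene next to it had a peak added WOX14 and ANT, for 4 of 10 against 37.2% of all genes.

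Several peaks close to the LBD4 peak had no assigned gene. To the left of its own peak lay 3 such peaks, with their summits at -3.41, -2.77 and -2.36 kb from its summit and folds of 5.27, 9.51 and 2.94. The middle one (chromosome 1, 11208856 to 11209212) had a −log10 q of 37.73, 2 motif sites and a fold above 96.3% of all peaks, so the strongest peak of this cluster was not the one assigned to LBD4. The LBD4 peak thus had 3 other peaks centred within 5 kb, as many as or more than which were found at 77 nuclear peaks (1.44%). This window was chosen after the positions had been seen. Which gene the 3 peaks belong to is not given in the deposited table, and the sources used here do not give the rule that left them without one.

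Within the same 5 kb the HB8 peak had 1 other peak. Over wider spans HB8 did not have fewer peaks. A 1 Mb window, centred midway between the flanking assigned peaks, held 61 peaks at HB8 and 57 at LBD4, own peaks included. The assigned peaks on either side of HB8 were 21.2 kb apart against 67.9 kb at LBD4. The nearest peak, 2374 bp to the right (chromosome 4, 15872153 to 15872361), had no assigned gene, a fold of 3.48 and 2 motif sites, the better with a q of 0.00632. To the left, 8624 bp away, lay a peak of the adjacent locus AT4G32870 with a fold of 3.85. Having at least 1 other peak within 5 kb was common, at 40.7% of nuclear peaks, and the median distance to the nearest peak was 6.52 kb.

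**Figure D1:**
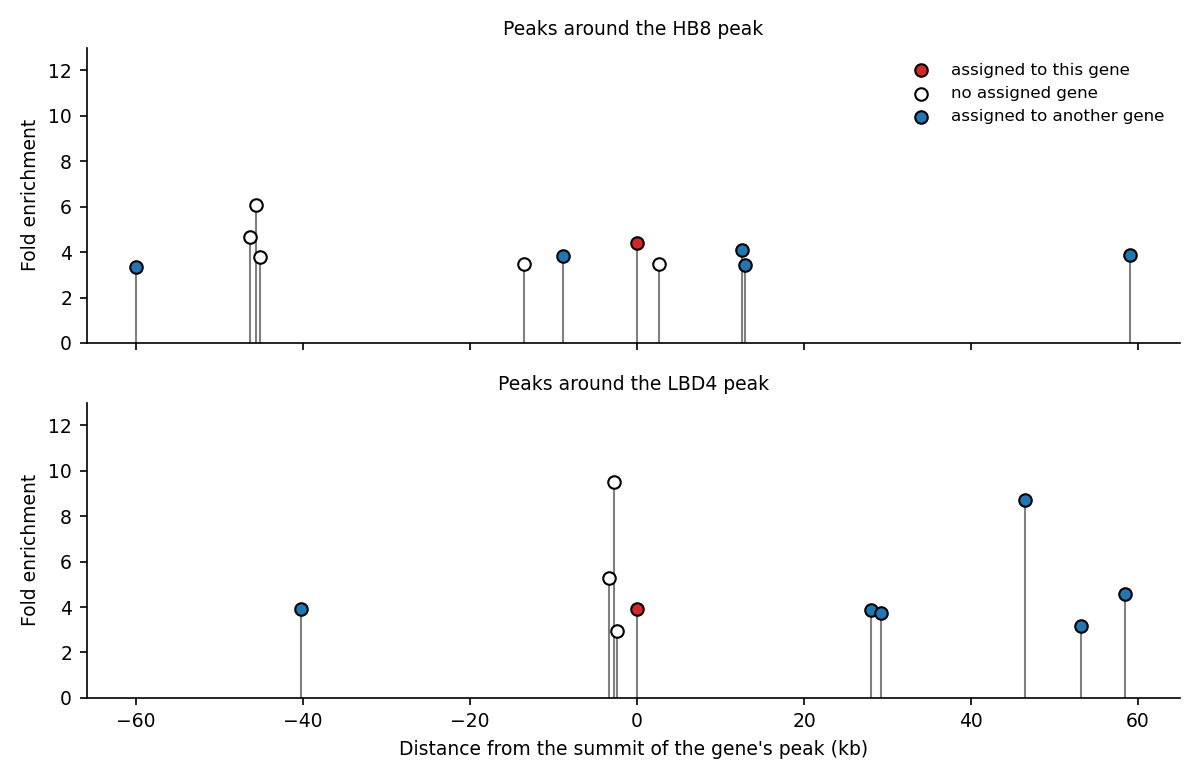
Fold enrichment (vertical axis) of every MYB67 peak within 60 kb of the summit of the HB8 peak (upper panel) and the LBD4 peak (lower panel), by distance in kb along the chromosome. The LBD4 peak, at a fold of 3.93, has 3 peaks with no assigned gene to its left, the highest at 9.51, while all peaks within 20 kb of the HB8 peak lie below its 4.38.

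The receptor and its homeobox effectors had no assigned peak, so the stretches around them were set beside those of other genes without one. For each gene the nearest genes with a peak on either side were found by gene order, and the distance between their peaks was taken from the peak list. PXY lay among 19 consecutive genes without an assigned peak, between AT5G61340 and AT5G61520, whose facing peaks were 75.1 kb apart. WOX4 lay among 4, between AT1G46336 (fold 3.68) and AT1G46840 (fold 3.78), 40.7 kb apart. WOX14 lay among 9, between AT1G20640 (fold 3.78) and WOX10, 29.2 kb apart. It stood directly beside WOX10, a homeobox gene of the same family, which had a peak (chromosome 1, 7184469 to 7184674) with a fold of 3.60 and 1 site with a q of 0.00864. Over 23343 genes without a peak the median of this distance was 43.6 kb (quartiles 26.6 and 71.3) and the median number of genes in the stretch was 11. Both values were below these medians at WOX4 and WOX14 and above them at PXY.

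KNAT1 had the longest gap of the regulators by distance, 315 kb, longer than that of 98.8% of genes without a peak. By gene count its stretch was ordinary, with 12 genes against a median of 11. Inside it lay 5 peaks with no assigned gene. Peaks were sparse there, with 30 in a 1 Mb window centred on the gap. The median over genes without a peak was 47 (quartiles 41 and 53). Among the LBD genes without a peak, the gap was 91.4 kb and 32 genes at LBD1, 77.3 kb and 16 genes at LBD3, and 48.5 kb and 5 genes at LBD11. ANT, which promotes cell proliferation and acts in the cambium, followed directly on GRF2, a growth-regulating factor gene with a peak of fold 4.97. The next gene with a peak on the other side of ANT was AT4G37880, behind 12 genes without one.

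**Figure D2:**
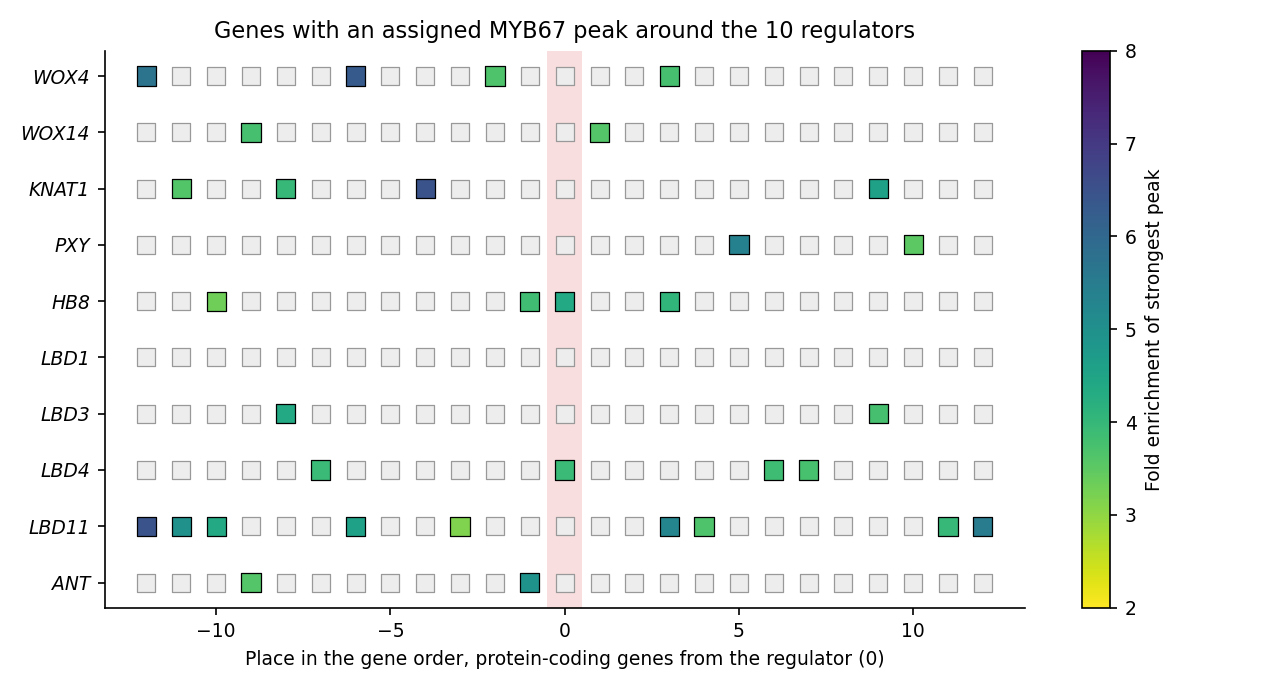
Gene order around each of the 10 regulators, which stand at 0; each square is a protein-coding gene, up to 12 to either side, filled by the fold enrichment of its strongest peak and grey where no peak was assigned. HB8 and LBD4 are filled at 0. A direct neighbour is filled at HB8, WOX14 and ANT, and LBD1 has no filled gene within 12 genes.

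Peaks without an assigned gene lay inside the gaps of 4 of the 8 regulators without a peak, namely WOX4, KNAT1, LBD3 and ANT. The same held for 20.7% of all genes without a peak, and the 315 kb gap at KNAT1 gives more room for them. With a −log10 q of at least 10, the count was 3 of 8, KNAT1, LBD3 and ANT, against 12.2%, again not matched for length. The highest fold was in the gap that holds ANT, where a peak at chromosome 4, 17773056 to 17773478, had a fold of 14.3, a −log10 q of 63.34 and 4 motif sites. Only 28 of the 5390 peaks had a higher fold. That gap holds 13 genes without an assigned peak, the peak lies 46.7 kb from the GRF2 peak, and it cannot be given to ANT or to any other of the 13 from these files.

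Genes around the regulators in the same pathways were grouped into 3 lists. Of 11 genes of peptide and receptor signalling 2 had a peak (18.2%), of 13 auxin and cytokinin genes 2 (15.4%) and of 19 other transcription factors of cambium and phellogen 6 (31.6%), beside the 14.7% of all genes. The 10 genes with a peak had folds of 4.06 to 6.77 with a median of 4.64, against 4.47 over all genes with a peak. Each list is small, and no test was made of the difference.

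In peptide signalling the TDIF genes CLE41 and CLE44 and the related CLE42 had no peak, so none was assigned to the ligand genes or to the receptor gene PXY. PXL2, a receptor kinase gene related to PXY, had a peak (chromosome 4, 14147612 to 14147867) with a fold of 4.37, but its single site had a q of 0.0496, at the edge of the deposited threshold. RUL1, a receptor kinase gene that promotes cambium activity, had the highest fold of the 3 lists, 6.77 (chromosome 5, 1527158 to 1527509), with 5 sites and a −log10 q of 17.83. MOL1, a receptor kinase gene that limits cambium activity, had none, nor did PXL1, ER, ERL1, BIN2 or BES1.

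Among auxin and cytokinin genes the 2 peaks lay at LHW and IPT3. LHW encodes the bHLH partner of TMO5 in vascular cell division, and its peak had a fold of 4.38 with 3 sites, the best with a q of 0.00564. IPT3 encodes an enzyme of cytokinin synthesis, and its peak had a fold of 6.34 and no FIMO site. IPT8 is in the list because its identifier was first entered as that of IPT7, so IPT7 itself was not looked up. No peak was assigned to ARF5 (MONOPTEROS), TMO5, LOG3, LOG4, IPT1, IPT5, IPT8, WOL, CYCD3;1, CYCD3;2 or CYCD3;3.

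Of the transcription factors, TMO6, the partner of LBD4 and WOX14, had a peak (chromosome 5, 24242622 to 24242857) with a fold of 4.06, a −log10 q of 12.96 and 3 sites. Of the 3 genes of that loop, TMO6 and LBD4 therefore had an assigned peak and WOX14 had none, beside 14.7% of all genes. The LBD4 peak was weak, with a −log10 q of 5.54 and a site q of 0.0354. With 3 genes, the count was not tested. The MADS-box gene SVP had a fold of 5.87 with 1 site, and PNF, a homeobox partner of KNOX factors, 4.68 with 3 sites. MYB84, an R2R3 MYB gene of the phellogen, had a fold of 5.27 and a −log10 q of 15.66, whereas the related MYB68 and MYB87 had none. HCA2, PEAR1, PEAR2, STM, KNAT2, KNAT6, BLR, SMXL5 and PTL had none either.

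The class III homeodomain-leucine zipper genes, to which HB8 belongs, had a peak in 3 of 5 cases, HB8, PHB and REV, beside 14.7% of all genes. With 5 genes, 1 of them chosen as a regulator, no test was made of this count. These factors pattern the vascular cylinder and specify xylem. PHB (chromosome 2, 14641109 to 14641453) had a fold of 4.23 with 2 sites, the better with a q of 0.00632, and REV (chromosome 5, 24397660 to 24397908) had 4.61 with 1 site of q 0.00819. All 3 folds lay close to the 4.47 of the median gene with a peak, none reached a −log10 q of 10, and the HB8 site was the weakest match of the best sites of the 3. PHV and CNA had no peak. PHB, REV, PHV and CNA are also in the list of 19 other transcription factors, so the shares of that list and of this family overlap.

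**Figure D3:**
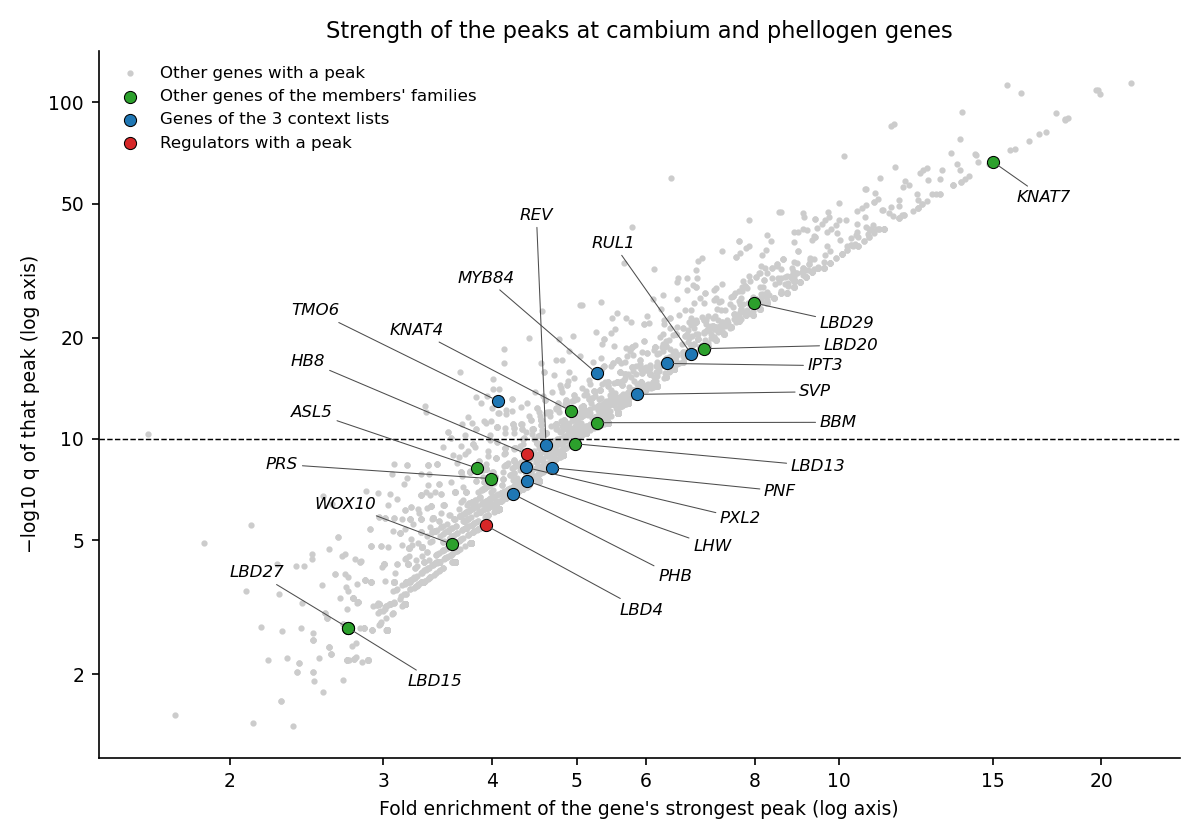
Fold enrichment against −log10 q, both on log axes, of the strongest peak of each of the 4030 genes with a peak; red marks the regulators, blue the genes of the 3 lists and green other genes of the regulators' families, and the dashed line is a −log10 q of 10. HB8 and LBD4 lie below the line, at 9.02 and 5.54, as do PHB, REV, PXL2, LHW and PNF.

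The families of the other regulators were counted in the same way, also without a test. LBD genes had a peak in 7 of 42 cases (16.7%), and 6 of the 7 are not among the regulators. By fold LBD4 came after LBD29 (7.99), LBD20 (6.99) and LBD13 (4.98), and it was followed by ASL5 (also called LBD12, 3.84), LBD15 (2.73) and LBD27 (2.73). Its site, with a q of 0.0354, was the weakest best match of the 6 LBD peaks that held a site. LBD27 had no site.

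WOX genes had a peak in 2 of 15 cases (13.3%), WOX10 and PRS, which acts in leaf margins and lateral sepals and had a fold of 3.99. KNOX genes had a peak in 2 of 9 cases (22.2%), KNAT7 and KNAT4 of class II, while KNAT3 and KNAT5 of that class had none. The class I genes KNAT1, STM, KNAT2 and KNAT6 had none either. At 14.7% of all genes, so few genes do not separate the classes. Of the 7 AINTEGUMENTA-like genes found by name, 1 had a peak, the embryo and root meristem gene BBM, with a fold of 5.27 and 3 sites. Of PXY and the related PXL1 and PXL2, PXL2 alone had one.

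**Figure D4:**
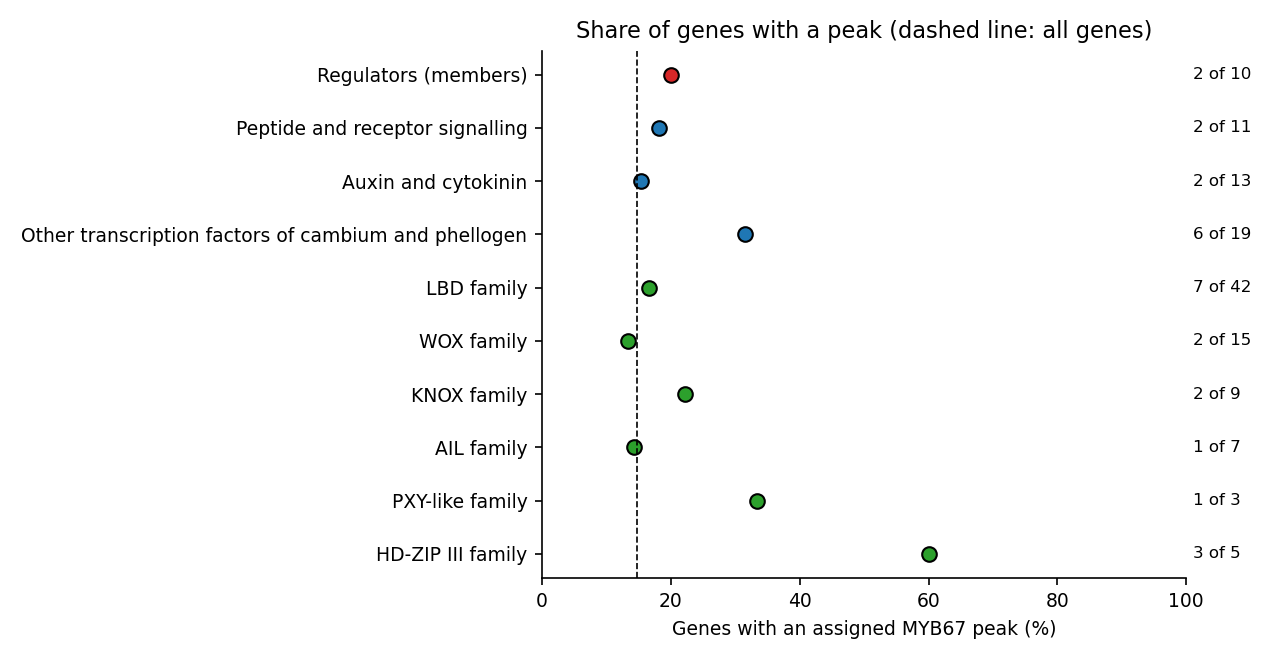
Share of genes with an assigned MYB67 peak (percent) among the 10 regulators (red), the 3 pathway lists (blue) and the 6 families to which the regulators belong (green), with counts at the right; the dashed line is the 14.7% of all nuclear protein-coding genes. The families include the regulators themselves, and the class III homeodomain-leucine zipper genes stand at 3 of 5. Lists and families share genes, among them PHB, REV and PXL2.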

How the data were processed

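Peaks refer to the build TAIR10, and MACS3 3.0.0a7, STAR 2.7.10a, HOMER and bedtools are among the tools listed, per the submitters' processing notes, without order or settings. The sources used here do not say how libraries were combined or how peaks were joined to genes. Per the file headers, the deposited gene table holds a fold enrichment (a ratio) and a q-value per peak, and the deposited peak list the same fold with a −log10 q. The deposited FIMO list gives a q-value per site with whole-peak coordinates, and the deposited motif matrix gives the fraction of each base.

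From these, peaks were joined to sites and genes with Python 3.11.15 and pandas 2.3.3. Each gene took the values of its strongest peak. Symbols and gene order came from a RefSeq table of TAIR10.1, in which all 53 listed loci matched by identifier. Its coordinates were not used beyond order. Printed positions are those of the peaks in TAIR10, counted from 1. Families were built from symbols and synonyms, without 1 polyol transporter and 1 hydroxymethyltransferase that share a name, and the class III homeodomain-leucine zipper genes were given by identifier.

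No test was made, since the files hold no replicate values. The members and lists were chosen with earlier results of these data known. Named were all members, all genes of the 3 lists, family genes with a peak, and neighbours of members; nearest genes with a peak further off, and peaks with no gene, were named after their values were seen. The gene-order search was tested on simulated data. No sequence of a promoter, peak or protein was used here, so the planned scan of promoters was not run.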

Additional observations from a re-analysis of the deposited data

Results flagged for a closer look

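The comparison of genes does not use peaks without an assigned gene, and 7 of these with a −log10 q of at least 10 lay between the nearest assigned peaks around a regulator. In the gap that holds ANT 1 had a fold of 14.29. Next to LBD4 the folds were 9.51 and 5.27. In the 315 kb gap at KNAT1 the folds were 9.6 (chromosome 4, 4988681 to 4989004), 7.37 and 5.42, with −log10 q of 46.02, 20.53 and 11.17. In the gap at LBD3 a peak at chromosome 1, 5634350 to 5634568, had a fold of 4.0 with a −log10 q of 19.81 and 5 sites. Each gap holds 12 to 16 genes, and none of these peaks can be given to a regulator from these files.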

How the results depend on the processing

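The count of regulators with an assigned peak, 2 as deposited, was 2 with a FIMO site required, 1 with peaks at or above the median fold, 0 at a −log10 q of at least 10, 0 at a site q of at most 0.01, and 4 with adjacent genes. By −log10 q in place of fold, HB8 stood above 54.5% and LBD4 above 23.2% of genes with a peak, and within peaks of like width by fold the values were 87.3% and 26.2%. The families and lists were recounted in the same way, a choice made after seeing the data, and these counts moved by over 1.5 times. At or above the median fold, LBD fell to 3, WOX to 0, PXY-like to 0 and peptide signalling to 1. At a −log10 q of at least 10, LBD fell to 2, WOX, PXY-like and class III homeodomain-leucine zipper genes to 0 each, peptide signalling and auxin and cytokinin to 1 each, and other transcription factors to 3. With a FIMO site required, auxin and cytokinin fell to 1. At a site q of at most 0.01, LBD fell to 1, PXY-like to 0, and peptide signalling and auxin and cytokinin to 1 each. With adjacent genes, LBD rose to 18 of 42, WOX to 5 of 15, AINTEGUMENTA-like to 2 of 7 and PXY-like to 2 of 3. Peptide signalling rose to 5 of 11 and auxin and cytokinin to 10 of 13. The share of all genes moved with the rule as well. It was 7.81% at or above the median fold, 6.07% at a −log10 q of at least 10 and 14.2% with a FIMO site. At a site q of at most 0.01 it was 7.63%, and with adjacent genes 37.2%. KNOX genes stayed at 2 throughout. No paired analysis was possible because the deposited columns hold no value of a single library, and leaving out a replicate could not be done for the same reason. Scans of promoters were not run, because no promoter sequence was used here. Library depth is unknown, which limits what the lack of a peak can show.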

Other observations

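Beyond the regulators themselves, some genes of their families had peaks stronger than those of HB8 and LBD4. KNAT7, a class II KNOX gene that regulates the secondary wall, had 3 assigned peaks, the strongest (chromosome 1, 23338196 to 23338667) with a fold of 15.01, a −log10 q of 66.54 and 3 sites, above 99.6% of genes with a peak. LBD29, which acts in lateral root formation, had 2 peaks, the stronger (chromosome 3, 21550332 to 21550650) with a fold of 7.99 and 4 sites, none with a q better than 0.0243. LBD20 had a fold of 6.99 in a peak of 497 bp with 4 sites, and KNAT4 a fold of 4.93 with 2 sites.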
